A study of Arabidopsis thaliana with 7 samples.

Results

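E2FC-GFP binding in whole Arabidopsis thaliana seedlings was compared with that of E2FA-GFP and E2FB-GFP. The members were all 24883 nuclear peaks of the single E2FC library, out of 187772 peaks in the 7 libraries of the series, and each was classed by whether it shared at least 1 bp with an E2FA peak, an E2FB peak, both or neither. The converse set was the 21958 E2FA peaks that overlapped an E2FB peak, which were classed by overlap with E2FC.

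The E2FC, E2FA and E2FB lines each carried the protein fused to GFP under its own promoter in the Col0 background, and chromatin of untreated seedlings was recovered with an anti-GFP antibody. The seedlings were 12 days old by the sample labels, and the methods of the study give another age. The replicate 1 lists, 1 per protein, were used for the comparison, together with an RBR-GFP list of the same kind, and the replicate 2 lists of E2FA, E2FB and RBR were a separate readout in another peak format. E2FC had 1 library, no library of plants without a fusion or of input DNA was used, and whole seedlings mix dividing and differentiated cells, so all values describe these libraries and carry no replicate error.

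The canonical E2Fs bind DNA as dimers with DPA or DPB and are held in check by RETINOBLASTOMA-RELATED (RBR), the plant retinoblastoma protein. E2FA and E2FB are generally described as activators of S-phase and mitotic genes once released from RBR, and E2FC, which lacks a strong activating function, as a repressor that acts in cell cycle exit and endoreduplication. All of them recognise related sites of the TTTSSCGC type, where S stands for C or G, which are known from promoters of DNA replication genes.

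The sequences of 4 promoters show E2F sites under high E2FC peaks. They were selected for such a site, as the highest-ranked E2FC peaks shared with E2FA and E2FB in which the part of the peak within 150 bp upstream of the transcriptional start site (TSS) holds a TTTSSCGC word. Capitals mark TTTCCCGC, TTTCGCGC, TTTGCCGC, TTTGGCGC or the reverse complement of one of them. All sequences are RefSeq TAIR10.1, whose nuclear chromosomes have the lengths of the TAIR10 build used by the authors, and are given along the direction of transcription of the gene.

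FAS1 (AT1G65470), chr1:24324135-24324234, minus strand: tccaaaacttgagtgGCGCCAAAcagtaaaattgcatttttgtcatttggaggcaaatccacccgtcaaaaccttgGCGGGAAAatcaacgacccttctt
AT5G40460, chr5:16202003-16202102, plus strand: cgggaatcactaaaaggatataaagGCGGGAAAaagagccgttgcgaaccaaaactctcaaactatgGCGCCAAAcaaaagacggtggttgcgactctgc
MCM5 (AT2G07690), chr2:3527501-3527565, minus strand: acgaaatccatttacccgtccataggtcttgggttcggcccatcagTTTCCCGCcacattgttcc
AT3G23740, chr3:8554840-8554917, minus strand: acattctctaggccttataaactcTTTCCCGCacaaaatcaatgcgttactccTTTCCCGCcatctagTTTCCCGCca

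FAS1 encodes a subunit of chromatin assembly factor 1, AT5G40460 a cyclin-dependent kinase inhibitor annotated as SMR3-like, and MCM5 a subunit of the replicative helicase. The FAS1 window runs from -143 to -44 bp of the TSS and holds 2 sites, that of AT5G40460 runs from -139 to -40 bp and also holds 2, that of MCM5 holds 1 and that of AT3G23740 holds 3. The windows have a GC content of 44%, 48%, 52.3% and 46.2%. The fold enrichment of E2FC, which the peak caller computed against nearby background within the library and averaged over the peak, was 3.92 at FAS1, 3.83 at AT5G40460, 3.52 at MCM5 and 3.40 at AT3G23740, which ranked 1, 2, 9 and 12 of the 24883 peaks. Most high peaks were not of this kind, since a TTTSSCGC word was within 100 bp of the midpoint in 29 of the 100 highest E2FC peaks and 85 of the 500 highest. The peaks ranked 3, 4 and 5 had none there, with a GC content of 23%, 15.0% and 35% around the midpoint.

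High peaks of the other classes are shown as 100 bp around the peak midpoint, for those shared with E2FA only and those shared with neither. They were taken from intergenic or upstream DNA without similarity to the organelle genomes, by another rule than the promoters above, so the 2 sets of sequences are not a comparison of classes. None of them holds a TTTSSCGC word.

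E2FA only, chr2:4972678-4972777, plus strand: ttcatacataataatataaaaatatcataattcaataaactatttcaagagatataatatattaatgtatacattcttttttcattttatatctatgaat
E2FA only, chr2:1776188-1776287, plus strand: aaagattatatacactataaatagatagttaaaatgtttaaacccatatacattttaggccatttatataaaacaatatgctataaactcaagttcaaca
Neither, chr5:12877557-12877656, plus strand: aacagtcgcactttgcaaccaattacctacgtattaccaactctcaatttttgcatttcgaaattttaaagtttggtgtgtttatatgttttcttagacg
Neither, chr4:3953590-3953689, plus strand: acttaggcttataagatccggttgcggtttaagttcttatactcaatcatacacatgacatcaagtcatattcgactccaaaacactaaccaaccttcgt

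The GC content of these windows is 14% and 22% for the E2FA only sites and 33% and 38% for the sites with neither. The peaks ranked 93, 361, 1511 and 1532 in the E2FC list, with fold enrichments of 2.91, 2.60, 2.24 and 2.23.

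Most E2FC peaks lay where both activators also had a peak. Of the 24883 E2FC peaks, 19501 overlapped both E2FA and E2FB, or 78.4% (95% interval 77.9 to 78.9, exact Clopper-Pearson, counting error only). A further 4072 peaks overlapped E2FA only (16.4%, 15.9 to 16.8), 156 overlapped E2FB only (0.627%, 0.533 to 0.733) and 1154 overlapped neither (4.64%, 4.38 to 4.91). With E2FA and E2FB of replicate 2 in place of replicate 1, 51.2% overlapped both and 41.2% neither, and with every peak set to 400 bp 53.3% and 16.6%. In replicate 1, almost every E2FC peak outside the three-protein class was therefore either an E2FA site or a site of its own. The E2FC, E2FA and E2FB lists covered 12.4%, 21.3% and 16.2% of the nuclear genome, so that the E2FC list was set against a larger E2FA target than E2FB target.

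The class depended on the rank within the E2FC list. Among the highest decile of E2FC peaks, with a fold enrichment from 2.105 to 3.92, 94.1% overlapped both activators and 5 peaks (0.201%) overlapped neither. Among the lowest decile, from 1.203 to 1.44, 68.5% overlapped both and 309 peaks (12.4%) overlapped neither. The E2FA only share stayed between 17.4% and 19.7% in the lowest 7 deciles and was 5.39% in the highest. Hence, against replicate 1, the peaks with neither were concentrated at the weak end of the list. Against replicate 2 they were not, since the median E2FC percentile of the peaks with neither was 53.9 there, compared with 22.3 in replicate 1 and 37.4 with all peaks set to 400 bp.

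**Figure D1:**
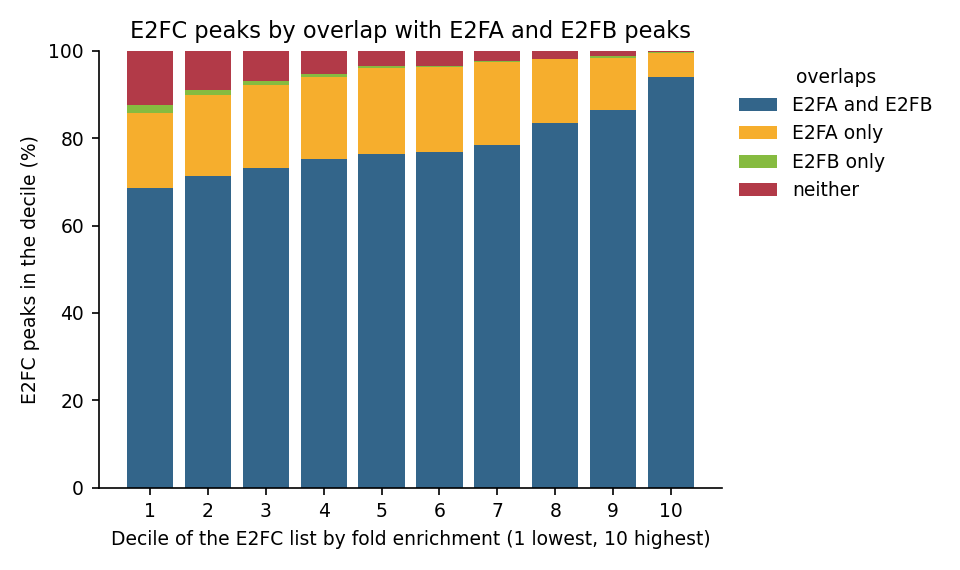
Percent of E2FC peaks in each overlap class (y axis) by decile of the E2FC list ranked on fold enrichment (x axis, 1 lowest and 10 highest, 2488 or 2489 peaks each). The share that overlaps both E2FA and E2FB is 68.5% in the lowest decile and 94.1% in the highest, and the share that overlaps neither is 12.4% and 0.201%.

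The classes differed in width and in enrichment. The median width was 499 bp for E2FC peaks that overlapped both, 300 bp with E2FA only, 216 bp with E2FB only and 221.5 bp with neither. The median fold enrichment was 1.66, 1.61, 1.51 and 1.50 in the same order, and the median percentile within the E2FC list was 53.6, 43.7, 24.0 and 22.3. The highest fold enrichment of a peak with neither was 2.26, against 3.92 for a peak with both. A wide peak has more chance to touch another peak, and width, rank and class moved together in these lists.

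The E2FC peaks with no E2FA or E2FB peak were mostly not the edges of neighbouring peaks. The median distance to the nearest E2FA or E2FB peak was 1124 bp (quartiles 511 and 2838 bp), 58 of the 1154 peaks (5.03%) had one within 200 bp, and 616 (53.4%) had none within 1000 bp. At the edge of the overlap rule, 39 E2FC peaks overlapped an activator peak by no more than 50 bp, and 17 missed the nearest by no more than 50 bp; their median percentiles in the E2FC list were 8.95 and 9.53.

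E2FC peaks shared with both activators were the class most often upstream of a TSS. Their midpoint was within 1000 bp upstream of the nearest TSS in 51.8% of cases (51.1 to 52.5) and within 1000 bp downstream in 13.6%. The upstream share was 38.6% with E2FA only (37.1 to 40.1), 36.5% with E2FB only (29.0 to 44.6) and 33.8% with neither (31.1 to 36.6). The share farther than 1000 bp from any TSS was 34.6%, 50.5%, 38.5% and 51.7% in the same order. These TSSs are those of all annotated genes, noncoding genes and pseudogenes included. With protein-coding genes only, the upstream share of the class with neither was 19.5% (17.2 to 21.9). In the three-protein class, 9.34% of all midpoints fell in each of the 100 bp windows from -200 to -100 bp and from -100 bp to the TSS. The 156 peaks with E2FB only were fullest from the TSS to 100 bp downstream (15 peaks, 9.62%). The fullest 100 bp of the E2FA only class was from -300 to -200 bp (6.09%) and that of the class with neither from -400 to -300 bp (5.81%).

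**Figure D2:**
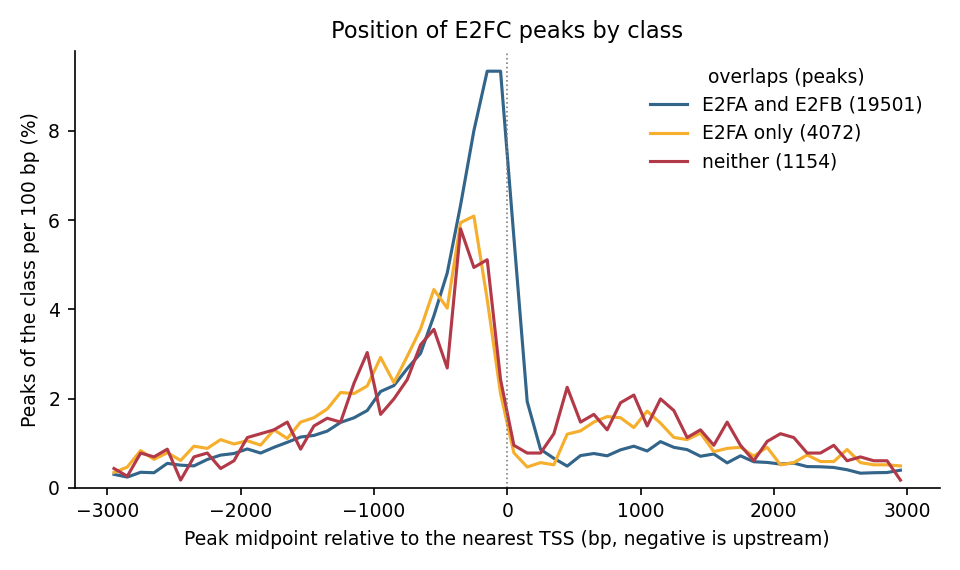
Percent of the E2FC peaks of a class (y axis) per 100 bp of distance between the peak midpoint and the nearest TSS (x axis, negative values upstream); the 156 peaks shared with E2FB only are not drawn. The three-protein class reaches 9.34% per 100 bp from -200 bp to the TSS, the E2FA only class 6.09% from -300 to -200 bp and the class with neither 5.81% from -400 to -300 bp.

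The annotation under the midpoint also differed between the classes. A 5' UTR was under 7.59% of the midpoints of the three-protein class, 10.3% with E2FB only, 0.982% with E2FA only and 0.347% with neither, and 4.91% of the bases of the nuclear genome are annotated as 5' UTR. Intergenic DNA more than 1000 bp upstream and 500 bp downstream of genes was under 27.2% of the midpoints with both, 47.7% with E2FA only, 22.4% with E2FB only and 48.01% with neither, against 19.0% of the genome. Coding sequence held only 1.21%, 0.688%, 8.97% and 3.38% of the midpoints, although it makes up 28.3% of the genome.

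The E2FA only sites and those with neither were also more often in gene-poor DNA. The nearest TSS belonged to a pseudogene for 19.1% of peaks with E2FA only and 27.7% with neither. The share was 4.13% with both and 6.41% with E2FB only. Pseudogenes, which in this annotation include transposon-like genes, were 12.8% of all annotated genes. Fewer than 10 protein-coding TSSs lay in the surrounding 100 kb for 17.5% and 28.2% of the peaks with E2FA only and with neither, but for 2.64% and 1.92% of those with both and with E2FB only. Along the genome, 13.4% of positions 1 kb apart were in such DNA. The shares of the classes were similar on the 5 chromosomes, with 75.04 to 80.2% of E2FC peaks shared with both.

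E2FC peaks were rich in A and T in every class. The median GC content of the 200 bp around the midpoint was 27.5% with both, 22.0% with E2FA only, 31% with E2FB only and 25% with neither. The 200 bp windows 600 bp to either side of the same peaks had medians of 33.8%, 32.3%, 35.0% and 33.3%. The median of 200 bp windows along the nuclear genome was 36.5%, and that of the 200 bp before protein-coding TSSs 31.5%. GC content fell along the list, since its median was 29.0% in the lowest decile of E2FC peaks and 22.0% in the highest. The part of base composition in the enrichment values was not tested.

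The TTTSSCGC site was found within 100 bp of the midpoint in 465 of 19501 peaks with both (2.38%, 2.18 to 2.61), 30 of 4072 with E2FA only (0.737%, 0.498 to 1.05), 7 of 156 with E2FB only (4.49%, 1.82 to 9.03) and 8 of 1154 with neither (0.693%, 0.300 to 1.36). Of the 200 bp windows before all protein-coding TSSs, 1.21% held it. The windows to either side of the peaks gave 0.890%, 1.26%, 0.962% and 0.780%, and the same letters read backwards were found at the midpoints of 0.831%, 0.221%, 0% and 0.347% of peaks. The site thus exceeded its flanks at peaks shared with both activators and at the few shared with E2FB only, and did not at peaks shared with E2FA only or neither. The flanks were richer in GC than the midpoints, however. The backwards word, of the same composition, was rarer than the site in every class. With E2FA only its interval (0.101 to 0.419) lay below that of the site, and with E2FB only or neither the intervals overlapped. Within the three-protein class the TTTSSCGC site was present in 13 of 1705 peaks (0.762%) of the lowest decile of the E2FC list. In the highest decile it was present in 184 of 2341 peaks (7.86%).

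Other promoter words were scarcer at E2FC peaks than in promoters. TGGGCC, the core of site II elements of ribosomal protein and cell cycle promoters, was in 5.55% of the windows with both, 0.761% with E2FA only, 7.05% with E2FB only and 1.65% with neither, against 12.6% before all protein-coding TSSs. AAACCCTA, the telo box, was in 1.70%, 1.302%, 3.21% and 1.73%, against 3.72% before all TSSs, and CACGTG, the G-box, in 4.87%, 1.15%, 1.92% and 0.433%, against 5.64%. In the three-protein class TGGGCC and CACGTG nevertheless exceeded the windows to either side (3.11% and 2.64%), and AAACCCTA did not (3.22%). Words were counted on both strands, and a match describes the letters only.

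The libraries that played no part in the classes overlapped them to different extents. Over all E2FC peaks, RBR of replicate 1 overlapped 75.05%, E2FA of replicate 2 52.99% and E2FB of replicate 2 57.03%. The classes also differed in median width, with 499 bp for both, 300 bp for E2FA only, 216 bp for E2FB only and 221.5 bp for neither. The part of peak width in the shares that follow was not tested. The RBR replicate 1 list overlapped 91.4% of E2FC peaks shared with both activators (91.0 to 91.8), 18.9% of those with E2FA only, 39.7% of those with E2FB only and 1.65% of those with neither. E2FA of replicate 2 overlapped 66.7% of the three-protein class, 2.36% of the E2FA only class, 37.2% of the E2FB only class and 1.82% of the class with neither. E2FB of replicate 2 overlapped 71.2% of the three-protein class, 4.42% of the E2FA only class, 78 of the 156 E2FB only peaks and 3.99% of the class with neither. The second E2FA library therefore had a peak at 96 of the 4072 sites that E2FC shared with E2FA only in replicate 1, a share close to that of the sites with neither.

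Overlap with replicate 2 did not increase with the E2FC rank. In the three-protein class, E2FA of replicate 2 overlapped 76.5% of the peaks in the lowest decile of the E2FC list and 51.9% of those in the highest. E2FB of replicate 2 gave 80.6% and 55.8%, whereas RBR of replicate 1 gave 94.1% and 93.9%. Thus the top of the E2FC list held sites of more than a single kind.

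The 2341 three-protein sites in the highest decile of the E2FC list were split by whether the overlapping E2FA and E2FB peaks were in the highest decile of their own lists too. They were in the highest decile of all 3 lists at 623 sites (26.6%). These had a median GC content of 32.5%, a TTTSSCGC site in 19.3% (16.2 to 22.6), a TSS within 500 bp of the midpoint in 78.3% and within 1000 bp in 86.2%, and an E2FA peak of replicate 2 in 94.5%. The 233 sites high in E2FC and E2FB but not in E2FA were alike in these values, with 35.5% GC, a TTTSSCGC site in 18.9% (14.1 to 24.5), a TSS within 500 bp in 76.8% and within 1000 bp in 86.3%, and an E2FA replicate 2 peak in 92.3%.

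The remaining top-decile sites differed. The 538 sites high in E2FC and E2FA but not in E2FB had a median GC content of 17.0%, a TTTSSCGC site in 0.929% (0.302 to 2.16), a TSS within 500 bp in 33.5% and within 1000 bp in 58.9%, and an E2FA replicate 2 peak in 28.8%. The 947 sites high in E2FC alone had 19.5% GC, a TTTSSCGC site in 1.58% (0.889 to 2.60), a TSS within 500 bp in 34.3% and within 1000 bp in 55.6%, and an E2FA replicate 2 peak in 27.1%. E2FB of replicate 2 overlapped 95.2% of the sites high in all 3 lists, 92.3% of those high in E2FC and E2FB, 33.6% of those high in E2FC and E2FA and 33.5% of those high in E2FC alone. RBR of replicate 1 overlapped at least 88.1% of each of the 4 sets, whereas RBR of replicate 2 overlapped 94.7%, 92.3%, 39.0% and 38.5% of them in the same order. High E2FC enrichment with high E2FB enrichment thus went with TSS-proximal sites, E2F words and a peak in replicate 2, and high E2FC enrichment without it with AT-rich sites that were less often within 500 bp of a TSS.

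The position of E2FC peaks within the activator peaks was close. Of the 23573 E2FC peaks that overlapped E2FA, 69.0% lay wholly inside E2FA peaks, and of the 19657 that overlapped E2FB, 48.6% lay wholly inside E2FB peaks. Where 1 E2FC peak met 1 E2FA peak and no other, the median gap between the midpoints was 57 bp over 16620 pairs, and the E2FC peak was the narrower in 82.3% of them. For E2FC and E2FB these values were 76 bp over 15227 pairs and 66.9%, and for E2FA and E2FB the midpoints were 52 bp apart over 18473 pairs.

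Rank within the lists was shared more closely with E2FA than with E2FB. Across the one-to-one pairs, which are sites of single libraries and not replicates, Spearman's rho of the percentiles was 0.55 for E2FC with E2FA and 0.29 for E2FC with E2FB, against 0.66 for E2FA with E2FB. The pairs share the libraries and the base composition of the same DNA. At the three-protein sites, the E2FC percentile minus the mean of the E2FA and E2FB percentiles had a median of -9.02 and quartiles of -31.4 and 11.8.

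The 5 highest E2FC peaks overall were all three-protein sites. FAS1 had an E2FC peak of fold enrichment 3.92 centred 74 bp upstream of the TSS, at percentiles 94.0 and 97.0 of the E2FA and E2FB lists, where the overlapping E2FA and E2FB peaks were centred at -1200 and -1130 bp. In replicate 2, FAS1 was at percentile 99.97 for both E2FA and E2FB. The AT5G40460 peak, at -47 bp, had percentiles of 97.3 and 97.6 for E2FA and E2FB. The peak at -503 bp from the TSS of AT3G44763, which encodes an uncharacterized protein, had an E2FC fold enrichment of 3.69 and a GC content of 15.0%. RPA70B (AT5G08020), a subunit of the single-stranded DNA binding protein of replication and repair, had 3.64 at 60 bp downstream of the TSS, with percentiles above 99.8 for both activators. The third peak of the list lay at -3970 bp from the nearest protein-coding TSS and is not assigned to a gene.

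The strongest peaks of the other classes were at few known genes. With E2FA only, AT2G10545 (uncharacterized, peak at -794 bp, fold enrichment 2.59) and AT5G37670 (a small heat shock protein, peak at -983 bp, 2.59) were the genes within 1000 bp of the 5 highest peaks. With E2FB only, all 5 of the highest peaks were on chromosome 2 between 3254897 and 3451999, where at least 87.6% of their 31-mers also occur in the mitochondrial or chloroplast genome, and the genes within 1000 bp were AT2G07774, AT2G07621 and AT2G07779. With neither, the gene within 1000 bp of a top peak was AT2G07642, again at a peak whose 31-mers all occur in an organelle genome.

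Such organelle-like peaks numbered 70 in the E2FC list, of which 69 were on chromosome 2 from 3244694 to 3509789. They made up 29 of the 19501 peaks with both, 2 of the 4072 with E2FA only, 15 of the 156 with E2FB only and 24 of the 1154 with neither. Reads of organelle DNA could not be told apart from nuclear reads there in the peak lists. Without these peaks in any list, 78.5% of E2FC peaks overlapped both activators and 4.55% neither.

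The largest rank differences at three-protein sites named 3 genes in 1 direction and none in the other. E2FC stood highest above the mean of E2FA and E2FB at 5 sites, of which those within 1000 bp of a TSS were at UMAMIT30 (percentile 86.8 for E2FC, against 21.6 for E2FA and 17.3 for E2FB), SLAH4 (87.7, against 39.9 and 6.82) and SWEET6 (91.0, against 43.5 and 12.5). These encode an amino acid transporter family member, a homologue of the guard cell anion channel SLAC1 and a sugar transporter family member. Their peaks were 216 to 237 bp wide with a GC content of 21.0 to 24.0%, and none had an E2FA peak in replicate 2, whereas SLAH4 had an E2FB peak in replicate 2 and UMAMIT30 and SWEET6 an RBR peak in replicate 1. The 5 sites where E2FC stood lowest, with percentiles of 0.289 to 2.08 against 90.3 to 97.4 for E2FA and 91.2 to 97.6 for E2FB, were all more than 1000 bp from a protein-coding TSS, and 4 of the 5 had an E2FA peak in replicate 2.

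The converse comparison asked how many activator sites lacked E2FC. Of the 21958 E2FA peaks that overlapped E2FB, 16642 overlapped an E2FC peak (75.8%, 75.2 to 76.4) and 5316 did not. Counted over the 24536 E2FB peaks that overlapped E2FA, 74.2% (73.7 to 74.8) had E2FC. Of the whole E2FA list, 11.9% overlapped E2FC and not E2FB, and of the whole E2FB list 0.550% overlapped E2FC and not E2FA.

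Presence of E2FC followed the rank of the activator peak. It was found at 2740 of 2763 shared sites (99.2%, 98.8 to 99.5) in the highest decile of the E2FA list and at 257 of 1332 (19.3%, 17.2 to 21.5) in the lowest. Ranked by E2FB, the shares were 98.7% and 48.1%. Higher E2FA peaks were also wider, with a median of 1004 bp for the shared sites of the highest decile and 298.5 bp for those of the lowest. With every peak of the 3 lists set to 400 bp around its midpoint, the shares by E2FA rank were 91.8% and 17.4%, so the gradient was still present at equal width.

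**Figure D3:**
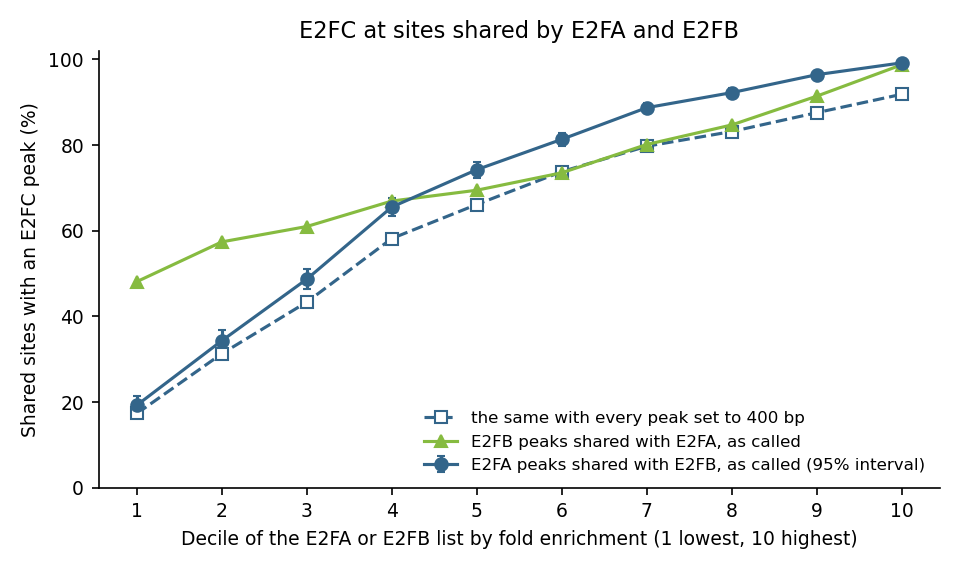
Percent of sites shared by E2FA and E2FB that overlap an E2FC peak (y axis) by decile of the E2FA list (circles with 95% Clopper-Pearson intervals, squares with every peak set to 400 bp) or of the E2FB list (triangles), ranked on fold enrichment (x axis, 10 highest). The share is 99.2% in the highest decile of E2FA and 19.3% in the lowest, and 91.8% and 17.4% at equal width.

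The shared sites with E2FC and those without it differed in sequence and place. With E2FC, the E2FA peaks had a median width of 922 bp, a percentile of 67.8 and a GC content of 28.0%, and without E2FC 398 bp, 26.3 and 32.5%. The midpoint was within 1000 bp downstream of a TSS at 12.4% of the sites with E2FC and 24.6% of those without, and farther than 1000 bp at 33.1% and 22.0%. TTTSSCGC was within 100 bp of the midpoint at 2.21% (1.99 to 2.45) of the sites with E2FC and 1.07% (0.813 to 1.39) of those without. TGGGCC went the other way, at 5.99% (5.64 to 6.36) and 11.5% (10.7 to 12.4), as did CACGTG, at 4.62% (4.31 to 4.95) and 8.39% (7.66 to 9.17).

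Sites without E2FC were recovered at least as often in the other libraries. E2FA of replicate 2 overlapped 71.7% of the shared sites with E2FC and 80.4% of those without, and RBR of replicate 1 92.5% and 94.2%. The E2FA peaks with E2FC but not E2FB stood apart, since only 3.23% of these 3312 peaks overlapped E2FA of replicate 2 and 17.7% overlapped RBR, and their median GC content was 22.0%.

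Very few strong activator sites lacked E2FC. Of the 1471 shared sites at or above percentile 90 in both the E2FA and the E2FB list, 5 had no E2FC peak, and of the 3297 at or above percentile 80, 36 had none. Those 5 were at WRKY25 (a stress-related transcription factor, peak 31 bp downstream of the TSS, percentile 92.4 for E2FA and 92.1 for E2FB), UBC18 (a ubiquitin-conjugating enzyme, -159 bp, 91.0 and 92.4), AT2G41870 (a remorin family protein, -261 bp, 90.8 and 94.7), RLP32 (a receptor-like protein, -302 bp, 90.02 and 95.4) and a site more than 1000 bp from a protein-coding TSS. All 5 had E2FA and E2FB peaks in replicate 2 and an RBR peak. The nearest E2FC peak was 474 bp away at AT2G41870 and between 1071 and 3538 bp away at the others.

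The genes of the tagged proteins served to check the labels and show the lists at E2F targets of known function. The E2FC library had a single peak of 7246 bp from -4400 to 2845 bp of the E2FC TSS, which covered 91.4% of the gene (AT1G47870, chromosome 1, 17634697 to 17637809). At the same gene, the E2FA library had a peak of 800 bp, from -536 to 263 bp, and the E2FB library 1 of 475 bp, from -219 to 255 bp. The E2FA and E2FB libraries in turn had, of their peaks at the tagged genes, the widest at their own gene, with 3658 bp over 75.9% of E2FA and 4078 bp over 86.8% of E2FB, where the E2FC library had 442 bp and 514 bp at the TSS. DNA of the transgene and of the endogenous gene cannot be told apart in such peaks, so the value of E2FC at its own gene was not read as binding.

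At the other tagged genes E2FC had promoter peaks together with the activators. The E2FC peak at E2FA (fold enrichment 2.92, percentile 99.6) ran from -251 to 190 bp, and E2FB had 2.88 there. At E2FB the E2FC peak had 2.07 (percentile 88.5), and E2FA had 2.28. At RBR, E2FC had 3.31 (percentile 99.9), against 3.98 for E2FA and 3.06 for E2FB. The E2FC promoter carried E2FA at 2.55 (percentile 92.6) and E2FB at 2.99 (percentile 99.8).

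**Figure D4:**
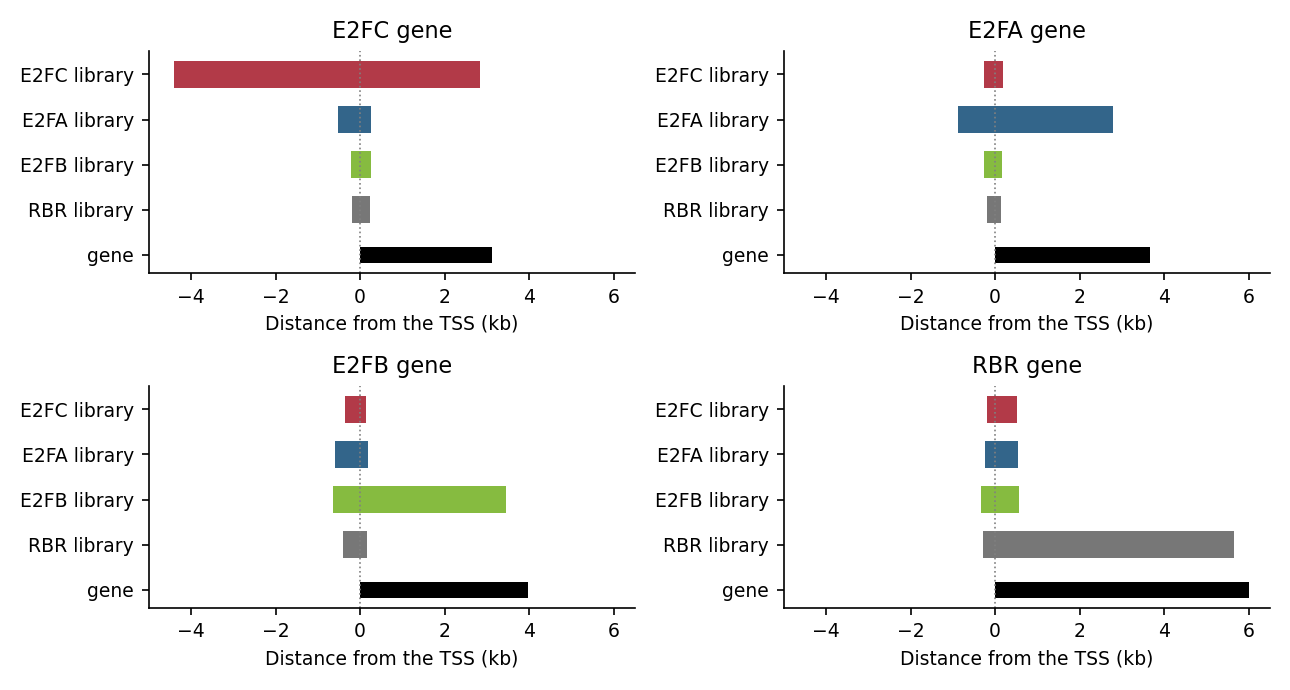
Peaks of the replicate 1 libraries (coloured bars, 1 row per library) that reach within 500 bp of the TSS of the genes of the tagged proteins, with the gene in black, against distance from the TSS in kb (x axis, positive along transcription). The E2FC library peak at E2FC spans 7246 bp, while the E2FC peaks at E2FA, E2FB and RBR are 442, 514 and 702 bp wide and sit at the TSS.

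Over all 27444 protein-coding genes, a peak reached within 500 bp of the TSS at 48.5% for E2FC, 69.5% for E2FA and 65.2% for E2FB. All 3 proteins were present at 11811 genes (43.0%, 42.4 to 43.6). E2FC without either activator was found at 261 genes, or 0.951% (0.840 to 1.07), which was 9.40% with the activators of replicate 2, and E2FA and E2FB without E2FC at 4802 genes, or 17.5% (17.0 to 18.0). E2FC and E2FA without E2FB were at 1142 genes and E2FC and E2FB without E2FA at 90. The replicate 2 list of E2FA had a peak at 6.90% of the 261 genes with E2FC alone, 82.0% of the genes with all 3 proteins and 87.2% of those with E2FA and E2FB only, so the genes lacking E2FC were no less often found again.

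Genes of DNA replication carried the highest E2FC peaks among the lists examined. Of 36 replication genes, 33 had E2FC within 500 bp of the TSS, against 35 with E2FA and 35 with E2FB, and 30, 29 and 30 had a peak in the highest decile of the E2FC, E2FA and E2FB list. Over all protein-coding genes the highest decile was reached at 6.01%, 9.12% and 9.66%. The median E2FC percentile of the replication genes with a peak was 98.8, against 54.0 for all genes with an E2FC peak. The examples that follow from this list and the next ones were chosen after their values were seen, except where a gene lacks 1 of the proteins.

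RNR1, the large subunit of ribonucleotide reductase, had fold enrichments of 3.53 for E2FC, 4.15 for E2FA and 3.64 for E2FB, and MCM5 3.52, 3.99 and 3.61. The small subunit gene RNR2A had E2FA at 2.23 (percentile 81.3) and E2FB at 1.73 (65.7) but no E2FC peak, although TSO2, another small subunit gene, had E2FC at 2.80 (99.4). POLE1A, the catalytic subunit of DNA polymerase epsilon, had low E2FA and E2FB peaks at percentiles 15.5 and 24.5 and none of E2FC. MSI1 had a peak of none of the 3 in replicate 1, but in replicate 2 it was at percentile 97.0 for E2FA and 94.6 for E2FB.

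Of 21 DNA repair genes, 17 had E2FC, 20 E2FA and 20 E2FB. The shares over all protein-coding genes, for this list and those that follow, were 48.5% for E2FC, 69.5% for E2FA and 65.2% for E2FB. E2FA and E2FB without E2FC were found at 17.5% of all protein-coding genes, so single genes of that kind do not set a list apart. BRCA1 (3.57 for E2FC, 3.996 for E2FA and 3.33 for E2FB) and the checkpoint kinase gene WEE1 (2.92, 3.85 and 3.34) were among the highest. ATM, a kinase that signals double-strand breaks, RAD50, which processes their ends, and LIG4, which joins them, had E2FA and E2FB but no E2FC, with E2FA percentiles of 34.5, 1.49 and 32.4 and E2FB percentiles of 46.8, 71.1 and 78.3. ATR, the sister kinase, had an E2FC percentile of 79.1, above 27.6 for E2FA and 59.3 for E2FB. In replicate 2 the E2FA percentiles of ATM, RAD50, LIG4 and ATR were 79.8, 85.7, 74.9 and 70.1, so the low E2FA ranks were not found there.

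E2FC peaks of high rank were also found at mitotic genes. E2FC was at 22 of 25 genes, E2FA at 23 and E2FB at 24, with 11, 4 and 10 in the highest decile and median percentiles of 89.7, 83.4 and 87.9. In replicate 2, 10 of the 25 were in the highest decile for E2FA and 11 for E2FB, so the lower count of E2FA in replicate 1 was not found there. The spindle factor gene TPX2 had percentiles of 97.9 for E2FC, 54.5 for E2FA and 95.05 for E2FB, and 97.1 for E2FA in replicate 2. The values of CDKB1;2, a plant-specific mitotic kinase, were 91.0, 51.6 and 92.2, and 77.1 for E2FA in replicate 2. BUBR1, of the spindle checkpoint, had E2FA (percentile 86.1) and E2FB (42.0) without E2FC, and in replicate 2 its percentiles were 7.96 for E2FA and 24.7 for E2FB. CYCB1;1, the B-type cyclin widely used as a marker of G2 and mitosis, had only E2FB in replicate 1 (fold enrichment 1.66, percentile 55.5). In replicate 2 it had E2FA too, at percentile 46.8, with E2FB at 51.1.

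The list of cell cycle exit genes holds mostly inhibitors of cyclin-dependent kinases and regulators of the anaphase-promoting complex, and also DEL1, SKP2A and SKP2B. It does not hold AT5G40460, the SMR3-like inhibitor gene with the second peak of the E2FC list. E2FC was at 18 of 21, E2FA at 21 and E2FB at 21, with 6, 7 and 9 in the highest decile and median percentiles of 69.0, 75.3 and 75.3. SMR7 (fold enrichment 3.11 for E2FC, 4.04 for E2FA and 3.11 for E2FB) and UVI4 (3.25, 3.39 and 3.07) were the highest, and CCS52A2, which drives endoreduplication, had 2.09, 2.38 and 2.33. The kinase inhibitor genes SMR1, SMR2 and SMR5 lacked E2FC, with E2FA at percentiles 60.5, 54.0 and 12.0 and E2FB at 39.0, 59.0 and 77.9. SIM, the founding member of that family, had E2FC at percentile 5.12, against 70.9 for E2FA and 26.5 for E2FB. These 3 peaks were centred at different places, at -9, -2079 and -271 bp of the TSS. In replicate 2 E2FA was at percentile 39.1.

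Of 19 genes of the E2F and RBR pathway itself, 18 had E2FC, 19 E2FA and 18 E2FB, and 11, 8 and 8 were in the highest decile, the E2FC gene with its own wide peak included. DPB, a dimer partner, had no E2FC peak and low peaks of E2FA (percentile 6.43) and E2FB (2.65), whereas DPA, the other partner, had percentiles of 94.0 for E2FC, 98.7 for E2FA and 99.9 for E2FB. CYCD4;1 had low E2FC (16.5) and E2FA (19.4) peaks without E2FB, which in replicate 2 had a peak at percentile 0.314.

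The lists of differentiation genes had no E2FC peak in the highest decile, which was reached at only 6.01% of all protein-coding genes. Lists of 10 to 20 genes are too short to tell this apart from that share. Of 20 photosynthesis genes, 8 had E2FC (40%, 19.1 to 63.9), 17 E2FA (85%) and 13 E2FB (65%), of which the shares of E2FC and E2FB were near those over all genes (48.5% and 65.2%). None, 2 and 1 of them were in the highest decile. LHCB1.1, LHCB2.2, LHCB4.2, LHCA4 and RBCS1B had E2FA and E2FB without E2FC, and LHCB1.3, LHCB1.4, LHCB5 and LHCA1 had E2FA alone in replicate 1. Of the latter, LHCB1.4, LHCB5 and LHCA1 had E2FB peaks in replicate 2, at percentiles 34.5, 13.8 and 38.0. Reads cannot always be assigned within the near-identical LHCB1, LHCB2 and RBCS genes. Of the 10 genes of the stomatal lineage, 8 had E2FC (80%, median percentile 61.7, against 48.5% and 54.0 over all genes) and all had E2FA and E2FB. None was in the highest decile for E2FC, 4 were for E2FA and 4 for E2FB, and in replicate 2 these were 1 for E2FA and none for E2FB. MUTE and FAMA, which drive the late steps of the lineage, lacked E2FC, with E2FA at percentiles 73.8 and 89.96 and E2FB at 4.47 and 4.62. The E2FA peak of FAMA was centred at -1105 bp of the TSS, and in replicate 2 neither gene had an E2FA or E2FB peak.

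Of 14 embryo and seed genes, 5 had E2FC (35.7%, 12.8 to 64.9), 7 E2FA (50%, 23.04 to 76.96) and 3 E2FB (21.4%, 4.66 to 50.8). The shares over all genes were 48.5%, 69.5% and 65.2%. Only the interval of E2FB lay below its share over all genes. The list is too short to tell the shares of E2FC and E2FA apart from theirs. None of the 14 genes was in the highest decile of any list. The embryonic regulator LEC2 (E2FC percentile 42.0, E2FA 27.3) and the seed storage gene CRA1 (36.9, 85.2) had E2FC and E2FA without E2FB. The CRA1 peaks were centred at different places, at -345 bp of the TSS for E2FC and -1464 bp for E2FA. CRU2, another storage protein gene, was the single gene of the 166 examined with E2FC alone, at fold enrichment 1.58 (percentile 38.5). CRU3 had E2FA and E2FB without E2FC, and ABI3 and SESA1 had E2FA alone, all in the lowest 3 deciles of their lists. In replicate 2 SESA1 had a low E2FB peak (percentile 9.07) and CRU3 an E2FB peak at percentile 39.8. LEC2, CRA1, CRU2 and ABI3 had no E2FA or E2FB peak in replicate 2. None of these lists was tested against others, and their members were chosen with earlier results of these data known.

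**Figure D5:**
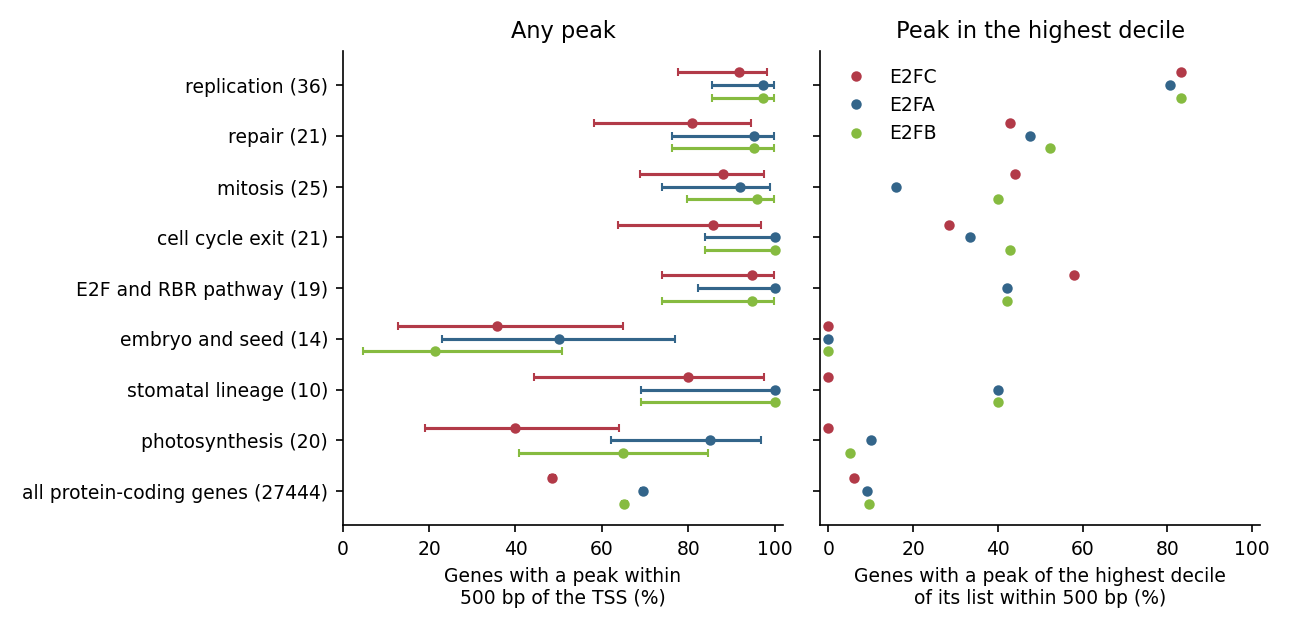
Left, percent of the genes of each list (rows, number of genes in parentheses) with an E2FC, E2FA or E2FB peak within 500 bp of the TSS (x axis), with 95% Clopper-Pearson intervals. Right, percent with such a peak in the highest decile of its list. For E2FC, E2FA and E2FB, 30, 29 and 30 of the 36 replication genes reach it. None of the stomatal or photosynthesis genes reaches it for E2FC, against 6.01% of all protein-coding genes.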

How the data were processed

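ChIP-seq peak lists of 7 libraries were used as deposited. According to the submitters' processing notes and the study's methods, the authors trimmed reads with Trimmomatic 0.38, mapped them to TAIR10 with Bowtie2 2.3.5, used SAMtools 1.9 and called peaks per library with MACS2 2.2.7.1. In the deposited lists, fold enrichment is a ratio of pileup to nearby background within each library, the p-value and q-value are given as -log10 values, and the score is derived from the q-value. The replicate 1 values are averages over broad peaks and the replicate 2 values refer to the summits of narrow peaks, so replicate and format cannot be told apart. Fold enrichment was used only as a value or percentile (percent of peaks below it) within a list. Read depth is not part of the peak lists, and signal tracks were not used here. The sources used here name no control library, so a bias of all libraries toward the same DNA is not corrected in the values.

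Peaks on the 5 nuclear chromosomes were kept. Genes came from RefSeq (37899 genes, 27444 protein-coding). Overlap needed 1 bp, and with 1 E2FC library no test was made. Intervals are exact Clopper-Pearson at 95%. Named genes were protein-coding genes, also where the TSS of a noncoding gene or pseudogene was nearer, with the protein-coding TSS nearest to, and within 1000 bp of, the midpoint of the 5 highest peaks of each class, the 5 highest activator sites without E2FC, or the 5 largest rank differences in each direction, with the tagged genes and the listed genes that differ in occupancy. Members and the 8 lists (166 genes) were chosen with earlier results of these data known. Planted overlap classes were recovered in 100% of 4000 simulated regions. Python 3.11.15, numpy 2.4.6, pandas 2.3.3, scipy 1.17.1 and matplotlib 3.10.9 were used. Alternatives varied the overlap, width, thresholds, window and replicate.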

Additional observations from a re-analysis of the deposited data

How the results depend on the processing

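Values are percents of peaks or genes unless a percentile is named, and 45 alternatives were computed, of which 13 stayed within the 95% interval of the value reported and 32 did not. The share of E2FC peaks that overlap both activators was 69.6% when 50% of the width had to be covered, 70.2% with the midpoint inside the other peak, 53.3% with all peaks 400 bp wide, 73.4% at a q-value under 0.01, 31.6% at a fold enrichment of at least 2, 58.5% for the top 15000 peaks of each list and 51.2% with E2FA and E2FB from replicate 2. The share that overlaps neither was 6.43%, 6.48%, 16.6%, 4.23%, 12.8%, 16.2% and 41.2% in the same order, and the share of sites shared by E2FA and E2FB that have E2FC was 54.4%, 62.1%, 67.9%, 68.6%, 41.1%, 70.3% and 58.7%, or 74.2% counted over E2FB peaks. A filter on fold enrichment acts on lists with different scales. The median percentile of E2FC peaks with neither was 37.4 at 400 bp, 26.3 at a q-value under 0.01, 53.9 with replicate 2 and 19.8 when ranked by q-value. Their share within 1000 bp upstream of a TSS was 37.2% at 400 bp, 37.8% with replicate 2 and 19.5% for protein-coding genes only, and within 500 bp it was 21.0%. Genes with E2FC and neither activator made up 0.834% at a q-value under 0.01 and 9.40% with replicate 2. The alternative that leaves out organelle-like peaks was chosen after seeing the data and kept its 4 values within the intervals. The cause of these shifts was not tested. Nearly all of the E2FC list overlapped an activator of replicate 1, but the extent depended on peak width and on the replicate. No paired analysis was possible because E2FC had 1 library and no result comes from a test.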
